A study of Caenorhabditis elegans with 2 samples.

Results

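Axon guidance and outgrowth genes make up a group of 44 of the 19973 nuclear protein-coding genes of Caenorhabditis elegans, and binding of the transcription factor ZAG-1 near them is described here. They were taken by name from a fixed list and divided by role into 12 ligands, 15 receptors and surface proteins, and 17 intracellular effectors. The role given to mig-13, unc-71 and vang-1 among the receptors and to nid-1 and madd-4 among the ligands was a judgement. ZAG-1 binding was mapped by chromatin immunoprecipitation and sequencing (ChIP-seq) in whole larvae of mixed sex at the third larval stage. Both samples, biological replicates 1 and 2, were of strain OP83, with the genotype unc-119(ed3) III and the insertion wgIs83, which carries an eGFP-tagged zag-1. There was no sample of another genotype, stage or factor, so conditions could not be compared, and all tissues of the animal contribute to each value. The sequencing depth is unknown, because the files hold regions and scores and no reads.

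Axon guidance works through secreted or membrane-bound cues, such as netrin (UNC-6), Slit (SLT-1), ephrins and semaphorins, which are read by receptors on the growth cone. The receptors act on small GTPases of the Rac family and on proteins that organise actin and microtubules, so the growth cone turns or extends. ZAG-1, a zinc finger and homeodomain protein, is the worm relative of vertebrate ZEB factors, and zag-1 mutants are known for faults in axon pathfinding and neuronal differentiation.

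Only 3 of the 44 genes had a region in the authors' optimal set, and all 3 regions were in promoters, against 58.1% of all nuclear optimal regions. They were unc-76, which encodes a FEZ family adaptor of the kinesin motor needed for axon bundling, unc-115, which encodes an actin-binding protein of the abLIM family, and unc-40, which encodes the netrin receptor of the DCC family. Each region was given to 1 gene, that with the closest protein-coding start to the summit, if it lay within 5000 bp. By this rule 6.82% of the members had an optimal region (exact 95% interval 1.43 to 18.7), against 1.52% of all nuclear protein-coding genes. The interval covers the counting of genes only, and reaches down to below the background share. Members also have more sequence near their starts than all genes, as described below, and the 6.82% was not adjusted for it. No ligand (0 of 12, upper bound of the exact interval 26.5%), 1 of 15 receptors and 2 of 17 effectors were in this set, numbers too small to order the roles.

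The strongest region at any member lay 320 bp upstream of an unc-76 start, with a score of 60.7 and rank 90 of the 10005 regions called from both replicates together, here the joint list. The score is the authors' own value for a region against a control, and can be ranked only within its list. It was 30.3 in replicate 1 (rank 59 of 30000) and 32.9 in replicate 2 (rank 141 of 26202). The region at unc-115, 151 bp upstream of the start, scored 50.02 at rank 141. Its summit was matched at rank 152 in replicate 1 (score 19.5) and at rank 216 in replicate 2 (score 27.8). Both genes thus had a region near the top of each replicate list.

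The sequences around the summits of 6 member regions among the 1000 highest of the joint list are shown, because those at unc-76 and unc-115 hold GA repeats and some of the others do not. Each is 201 bases of WBcel235 (ce11), from the RefSeq copy of the genome, written 5′ to 3′ on the strand of the gene with the summit in the middle. Capitals mark GAGAGA and also GAGACG and also GACGCA and also CACCTG, on either strand. The word GAGACG can overlap the word GACGCA in longer stretches. The first 3 of these words were frequent at the optimal regions of the whole series, and CACCTG is the word bound by vertebrate ZEB proteins. The windows lie at chrV:15071340-15071540 (plus strand, unc-76), chrX:10146641-10146841 (plus strand, unc-115), chrIV:3515729-3515929 (plus strand, unc-33), chrIV:8069273-8069473 (plus strand, sax-7), chrX:4799321-4799521 (minus strand, mig-13) and chrIV:5518956-5519156 (minus strand, unc-5).
unc-76: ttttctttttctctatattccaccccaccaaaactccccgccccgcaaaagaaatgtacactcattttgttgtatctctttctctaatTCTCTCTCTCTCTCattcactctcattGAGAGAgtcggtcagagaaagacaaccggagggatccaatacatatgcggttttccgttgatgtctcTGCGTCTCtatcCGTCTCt
unc-115: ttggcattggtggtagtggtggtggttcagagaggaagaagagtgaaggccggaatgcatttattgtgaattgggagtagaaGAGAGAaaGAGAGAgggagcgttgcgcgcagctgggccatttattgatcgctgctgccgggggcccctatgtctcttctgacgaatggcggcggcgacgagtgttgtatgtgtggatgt
unc-33: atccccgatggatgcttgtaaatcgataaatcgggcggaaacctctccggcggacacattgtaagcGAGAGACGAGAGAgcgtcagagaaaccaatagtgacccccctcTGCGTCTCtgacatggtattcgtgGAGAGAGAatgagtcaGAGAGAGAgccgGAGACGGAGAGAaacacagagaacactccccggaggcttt
sax-7: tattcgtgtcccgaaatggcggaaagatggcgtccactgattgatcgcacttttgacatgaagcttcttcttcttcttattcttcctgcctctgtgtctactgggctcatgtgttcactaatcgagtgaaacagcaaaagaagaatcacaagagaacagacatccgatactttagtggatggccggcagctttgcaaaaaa
mig-13: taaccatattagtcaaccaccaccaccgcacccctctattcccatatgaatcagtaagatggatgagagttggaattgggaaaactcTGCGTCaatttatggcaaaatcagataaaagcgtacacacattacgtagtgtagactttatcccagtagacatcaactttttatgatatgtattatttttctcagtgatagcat
unc-5: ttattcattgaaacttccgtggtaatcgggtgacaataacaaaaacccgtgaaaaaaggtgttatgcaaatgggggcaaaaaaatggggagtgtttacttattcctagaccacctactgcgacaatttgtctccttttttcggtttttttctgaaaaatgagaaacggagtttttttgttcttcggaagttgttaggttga

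GAGAGA lay within 50 bp of the summit at unc-76, unc-115 and unc-33, and at none of sax-7, mig-13 and unc-5. The 201 bases around the unc-33 summit held the densest run, with all of the first 3 words, although this region was below the optimal set. That of mig-13 held GACGCA alone, and those of sax-7 and unc-5 held none of the words. CACCTG was in none of the windows printed here. The optimal region of unc-40, which is not printed, held GACGCA within 50 bp and no GAGAGA. Within 50 bp GAGAGA was at 2 of the 3 optimal regions of members, against 38.6% of all nuclear optimal regions. Within 100 bp it was at all 3, against 54.3%. Of the 8 member regions at ranks 358 to 1000, 1 had it within 50 bp, against 22.3% of all nuclear regions of those ranks. Of the 81 joint-list regions at members, 8 had GAGAGA within 50 bp (9.88%) and 2 had CACCTG (2.47%), at unc-73 (rank 758) and clr-1 (rank 9016). Among all 9985 nuclear joint-list regions the shares were 8.98% and 1.88%, and among the 339 nuclear optimal regions 38.6% and 2.06%. Within 50 bp the shares of both words at members were close to those of the joint list as a whole. GAGACG was also close within 50 bp (4.94% against 4.74%), and within 100 bp it was at 11 of the 81 member summits (13.6%) against 8.43% of the joint list. GC content was 37.0% on average at the member summits, against 35.0% in the joint list and 48.6% in the optimal set.

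The optimal region of unc-40 was less even between the replicates. It scored 34.2 at rank 323, close to the lowest score of the optimal set (33.002), with its summit 282 bp upstream of the start. Replicate 2 held it at rank 270 with a score of 24.6, and replicate 1 only at rank 2254 with a score of 9.22. The start of npp-7, a gene that is no member, lay 479 bp from the same summit, so the region stands between a pair of promoters. The other optimal regions had no other protein-coding start closer than 2762 bp.

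**Figure D1:**
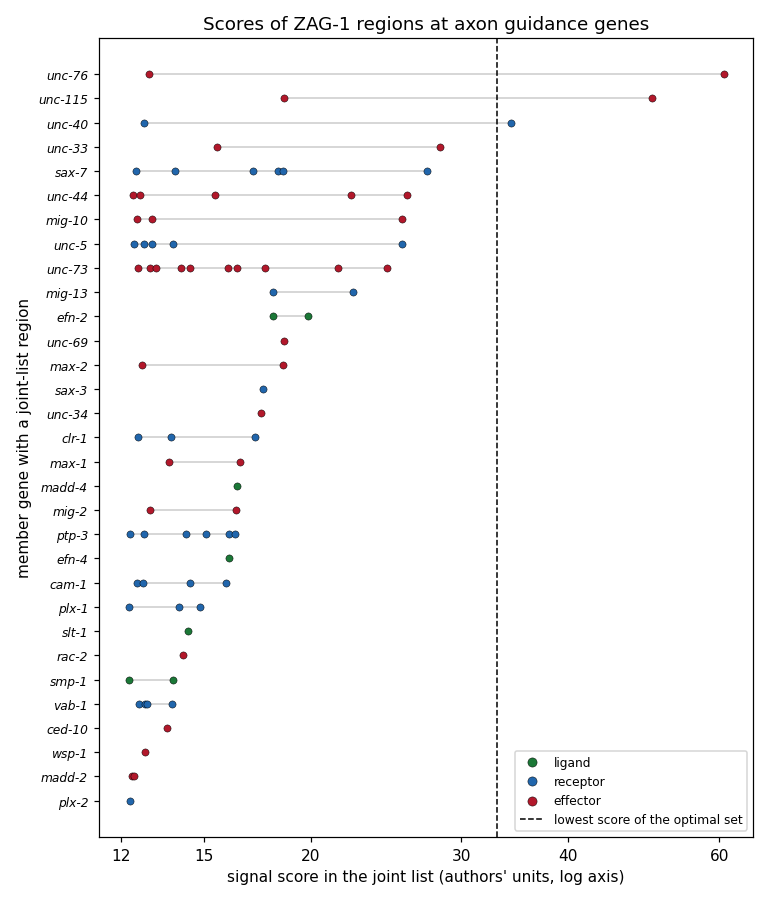
Scores of all 81 joint-list regions at the 31 members that have any, with each point a region, the x axis the authors' signal score on a log axis, and colours for the role of the gene. unc-76, unc-115 and unc-40 lie right of the dashed line at 33.002, the lowest score of the optimal set, and the other members fall between 12.3 and 28.3 by their best region.

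The joint list reaches further down and includes background regions on purpose, so its counts are read beside those of all genes. In it 31 of the 44 members had at least 1 region (70.5%, exact interval 54.8 to 83.2), against 30.7% of all genes. Members, however, have more sequence near their starts: the territory of a gene, meaning the bases whose nearest start within 5000 bp is its own, had a median of 9.73 kb for members and 3.77 kb for all genes. With the share of all genes in the same class of territory (below 5 kb, 5 to 10, 10 to 20 and above), 26.2 of the 44 would have a region, against the 31 found. Per 100 kb of territory the members held 15.4 regions and all genes held 10.1. This rate itself rose with territory over all genes, from 8.9 below 5 kb to 15.7 at 20 kb or more. Members were above all genes at 5 to 10 kb (16.6 against 9.84) and at 20 kb or more (19.1 against 15.7). They were lower below 5 kb (7.75 against 8.9) and at 10 to 20 kb (9.76 against 12.7). Among the 5000 highest regions of the joint list the members held 7.22 per 100 kb and all genes 5.03, and 23 members (52.3%) had such a region, against 17.5% of all genes.

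By their shares of genes, a pair of related gene lists lay on either side of the members. Of 74 further axon outgrowth genes, written out from general knowledge and with none of the 44 among them, 47 had a joint-list region (63.5%) at 16.2 per 100 kb, and 1 had an optimal region (1.35%). Their shares were below those of the members for a region among the 5000 highest of the joint list (43.2%) and for a region in both replicates (37.8%). Of 34 pan-neuronal synaptic and vesicle genes, 32 had a joint-list region (94.1%) at 24.6 per 100 kb, and unc-108 (67.7), egl-3 (56.9) and rab-3 (42.2) had an optimal region with the score given. The pan-neuronal shares were 82.4% for the 5000 highest and 70.6% for both replicates. The rate per 100 kb at the 44 members was no higher than in either list. For the 5000 highest regions it was 7.22, against 8.01 for the further axon outgrowth genes and 15.4 for the pan-neuronal genes. The members' shares of genes were above those of the further axon outgrowth genes and below those of the pan-neuronal genes. Median territories were 9.73, 7.37 and 8.53 kb in this order, the shares were not adjusted for them, and the differences were not tested.

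**Figure D2:**
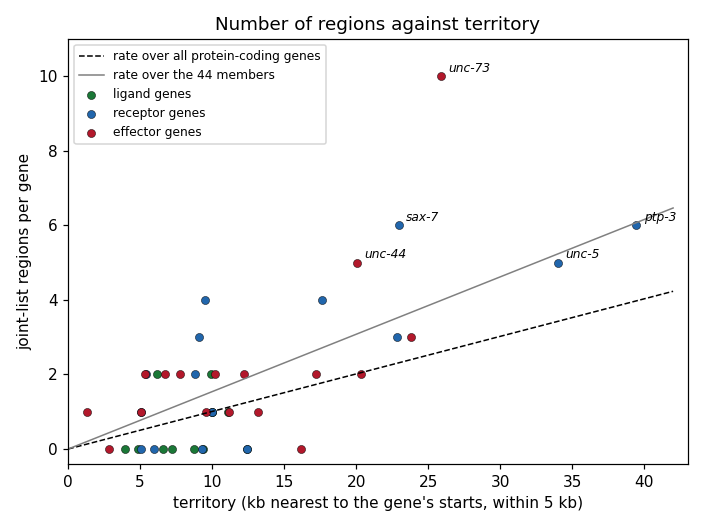
Joint-list regions per gene (y axis) against territory in kb (x axis) for the 44 members, coloured by role, with lines for the rate over all protein-coding genes (dashed, 10.1 per 100 kb) and over the members (grey, 15.4 per 100 kb). unc-73, with 10 regions, lies furthest above both lines, and the 13 members without a region lie at 0.

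Ligand genes had fewer regions than the genes of the other roles. Of the 12 ligand genes 5 had a joint-list region (41.7%, exact interval 15.2 to 72.3), with 7 regions and 6.99 per 100 kb. Receptor genes had 11 of 15 (73.3%, exact interval 44.9 to 92.2), with 37 regions and 17.02 per 100 kb. Effector genes had 15 of 17 (88.2%, exact interval 63.6 to 98.5), with 37 regions and 17.7 per 100 kb, or 14.8 without unc-73. Median territories were 9.05, 9.53 and 11.1 kb in this order, and total territories 100.2, 217.4 and 208.8 kb, so the roles differed less in territory than in regions. The largest ligand territory was 12.4 kb (vab-2), while over all genes the rate was highest, at 15.7 per 100 kb, for territories of 20 kb or more. The rates by role were not adjusted for this. Without the 5 genes of judged role, 4 of 10 ligand genes and 10 of 12 receptor genes had a region, at 7.27 and 17.72 per 100 kb. The intervals overlap, and the difference between roles was not tested because the members were chosen with results of these data known. The median of each gene's best score was 16.04 for the ligands, 17.2 for the receptors and 18.6 for the effectors, against 15.3 over all genes with a region. A best score can rise with the number of regions at a gene. Over single regions the medians did not follow this order. They were 16.04 for ligands, 13.86 for receptors and 15.47 for effectors, against 14.73 over all genes.

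Among the ligands the netrin gene unc-6 had no joint-list region. Its best replicate regions were at rank 3548 of replicate 1 (score 8.25) and rank 12767 of replicate 2 (score 7.80). The Slit gene slt-1 had 1, of score 14.4 at rank 5550, at 1434 bp upstream, which only replicate 2 matched (score 10.005, rank 5665). The highest ligand region was that of efn-2, an ephrin gene, with a score of 19.9 at rank 1485. It lay 1543 bp upstream, within the noncoding gene C43F9.16, and was matched in both replicates, at rank 27194 of replicate 1 (score 3.85) and rank 1561 of replicate 2 (score 13.8). A further efn-2 region, 23 bp inside the transcript, scored 18.1 and had no summit within 100 bp in either replicate.

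Of the other ligand genes with a region, madd-4 encodes a secreted muscle arm attractant and scored 16.4 in a coding exon at rank 3259, matched in replicate 1 (score 5.04), with the nearest replicate 2 summit 163 bp away. The ephrin gene efn-4 scored 16.04 in intergenic sequence 3334 bp upstream, matched in both replicates (scores 4.87 and 8.51). The semaphorin gene smp-1 had 2 low regions, of 13.8 and 12.3. Its relatives smp-2 and mab-20 had none, and neither did the ephrin genes vab-2 and efn-3, the TGF-beta gene unc-129 or the nidogen gene nid-1. The ligands, with 7 regions in all, therefore had none among the 1000 highest of the 10005 in the joint list. With so few regions this was not read as a difference between the roles.

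Of the 11 receptor genes with a region, the best region was in a promoter at unc-40 and mig-13, in an intron at sax-7, unc-5, ptp-3, plx-1 and vab-1, intergenic at clr-1, cam-1 and plx-2, and in a noncoding gene at sax-3. The gene unc-5, for the netrin receptor that mediates repulsion, had 5 regions. The highest lay in an intron 2791 bp upstream of its nearest start, with a score of 25.5 at rank 685. It was matched at similar standing in both replicates, at rank 893 of replicate 1 (score 11.4) and rank 1969 of replicate 2 (score 13.03). The L1CAM adhesion gene sax-7 had 6 regions, led by an intronic summit 2271 bp downstream of a start with a score of 27.3 at rank 563. In replicate 1 that region scored 9.39 (rank 2080), and in replicate 2 it scored 18.1 (rank 589). Both netrin receptor genes thus had a region among the 1000 highest of the joint list, while the netrin gene had none in the list. However, the territory of unc-5 was in the class of 20 kb or more, where 96.9% of all genes had a region. Those of unc-40 and unc-6 were both in the class of 5 to 10 kb, where 44.3% had one. The contrast was not adjusted for territory and was not tested.

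The transmembrane protein gene mig-13, which acts in neuroblast migration, had a promoter region 69 bp upstream of a start, of score 22.4 at rank 974. Replicate 1 matched it at rank 275 (score 15.2), and replicate 2 did not match it within 100 bp. The Robo receptor gene sax-3 had 1 region, 3582 bp upstream inside the noncoding gene ZK377.14, with a score of 17.6. It stood at rank 1849 in replicate 2 and only at rank 14361 in replicate 1. The LAR phosphatase gene ptp-3 had 6 regions, from 12.3 to 16.3, and the Ror kinase gene cam-1 and the Eph receptor gene vab-1 had 4 each, none above 15.9. The plexin genes plx-1 and plx-2 and the phosphatase gene clr-1 had 3, 1 and 3. The genes lad-2, dgn-1, unc-71 and vang-1, for an L1CAM protein, dystroglycan, an ADAM family protein and a planar polarity protein, had none. Of these dgn-1 still had a region at rank 1916 of replicate 1 (score 9.58) and at another position a region at rank 4972 of replicate 2 (score 10.4).

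Of the 11 member regions among the 1000 highest of the joint list, effector genes held 7 and receptor genes 4, each role having 37 regions in all. The effector count includes unc-44 at both rank 660 and rank 999. Of the 81 member regions 3 were at ranks 1 to 357 and 8 at ranks 358 to 1000. Over all 9985 nuclear joint-list regions these numbers were 339 and 642. The split by role was not tested. Of the 4 genes for adaptors of the cytoskeleton or of transport, unc-76, unc-33, unc-44 and unc-69, all had a region, with a median best score of 27.1. The region of unc-33, which encodes a CRMP protein that organises microtubules, scored 28.3 at rank 513, and lay 1057 bp upstream of the start. It stood higher in replicate 2, at rank 344 (score 22.05), while replicate 1 held it at rank 21358 (score 4.43). The region of unc-44, an ankyrin gene, scored 25.9 at rank 660 in intergenic sequence 3133 bp upstream and stood at rank 221 in replicate 1 (score 16.4). The nearest replicate 2 summit was 146 bp away, beyond the 100 bp limit, with a score of 10.6 at rank 4594. A further unc-44 region, 1201 bp upstream, scored 22.3 and was matched in both (scores 12.6 and 8.67). The coiled-coil gene unc-69 had 1 region, 151 bp upstream, of score 18.6, with the start of ostf-4 only 229 bp from the summit.

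The 4 actin regulator genes had a median best score of 21.5, led by unc-115. The lamellipodin gene mig-10 scored 25.5 in an intron and the Ena gene unc-34 scored 17.5, while the WASP gene wsp-1 scored only 12.8. The Rac exchange factor gene unc-73 (Trio family) had 10 regions, more than any other member, with a best score of 24.6, 5 of them among the 5000 highest and 2 matched in both replicates. The Rac genes themselves were low: mig-2 reached 16.4, rac-2 14.2 and ced-10 13.6. The PAK kinase gene max-2 scored 18.6 in a coding exon, matched in both replicates. The genes max-1 and madd-2, which encode a PH, MyTH4 and FERM domain protein and a tripartite motif protein, reached 16.5 and 12.4. The NDR kinase gene sax-1 and its Furry partner sax-2 had no joint-list region, and sax-1, with a territory of 2.86 kb, had none in either replicate list.

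**Figure D3:**
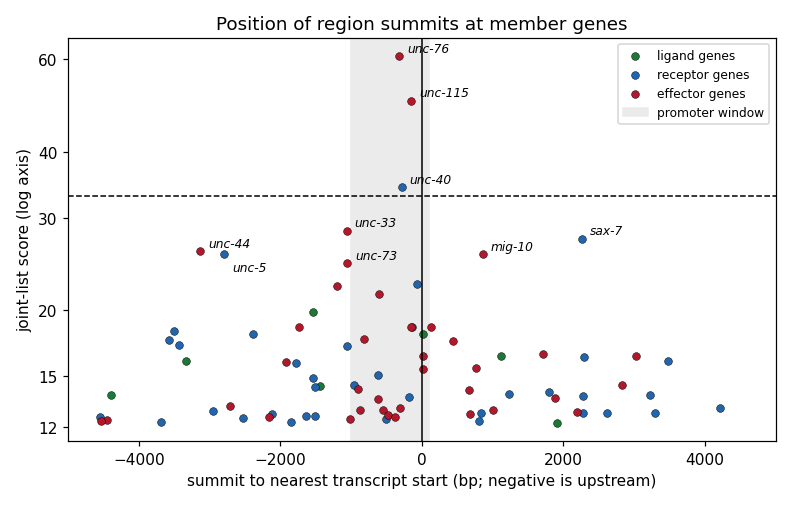
Distance from each summit to the nearest transcript start of the member in bp (x axis, negative is upstream) against the joint-list score on a log axis (y axis), for 81 regions coloured by role, with the promoter window shaded and the lowest optimal score (33.002) dashed. The 3 regions above the dashed line lie between 320 and 151 bp upstream, while regions below it spread over the whole range.

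The promoter share differed by rank. The promoter is here the window from 1000 bp before a start to 100 bp after it. All 3 optimal regions at members were in it, against 58.1% of all nuclear regions at ranks 1 to 357. Of the 8 member regions at ranks 358 to 1000 only 1 was (12.5%), against 45.8% of all nuclear regions of those ranks. At ranks 1001 to 5000 the shares were 29.6% of 27 and 28.8%, and below that 23.3% of 43 and 25.4%. Over all 81 regions 22 were in promoters (27.2%), against 31.6% of all regions given to a gene. The share was 14 of 37 at effectors (37.8%), 7 of 37 at receptors (18.9%) and 1 of 7 at ligands. Introns held 32 of the other summits, 20 of them at receptor genes, intergenic sequence held 18, coding exons 5, noncoding genes 3 and a 3' UTR 1. In all 52 summits lay within the body of the member itself. Upstream summits numbered 51 (63.0%, against 52.8% of all regions given to a gene). Over all 81 summits, on either side of the start, the median distance was 1507 bp, against 1053 bp over all regions given to a gene.

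Only the 5000 bp limit kept some further regions out. The member regions farthest inside it were at 4556 bp (cam-1), 4533 bp (madd-2) and 4457 bp (unc-44), and the nearest outside it was at 5483 bp (mig-10, score 17.6). Starts of noncoding RNAs, piRNAs, tRNAs and pseudogenes were nearer than that of the member for 32 of the 81 summits. In 23 cases this was an ncRNA gene, in 7 a piRNA, in 1 a tRNA and in 1 a pseudogene. The tRNA case was the weaker unc-115 region, 1732 bp upstream with a score of 18.6, which replicate 1 held at rank 273 (score 15.2) and replicate 2 did not match.

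Most member regions below the optimal set were not matched in both replicates. Of the 81, 21 had a summit within 100 bp in both replicate lists (25.9%, against 35.3% of all nuclear joint-list regions), 22 in replicate 1 alone, 34 in replicate 2 alone and 4 in neither. All 3 optimal regions, 5 of the 8 at ranks 358 to 1000 and 13 of the remaining 70 were matched in both. Of all nuclear regions 88.8% were matched at ranks 1 to 357 and 70.7% at ranks 358 to 1000. At ranks 1001 to 5000 the matched member regions were 7 of 27 (25.9%), against 43.2% of all nuclear regions. At ranks 5001 to 10005 they were 6 of 43, against 20.8%. Below rank 1000 member regions were thus matched less often than all regions of the same ranks, a difference that was not tested. By role the matched regions were 9 of 37 for effectors, 8 of 37 for receptors and 4 of 7 for ligands. The 21 pairs of scores had a Spearman correlation of 0.429, against 0.23 over 3524 nuclear regions, given as a description because regions share libraries and a control.

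**Figure D4:**
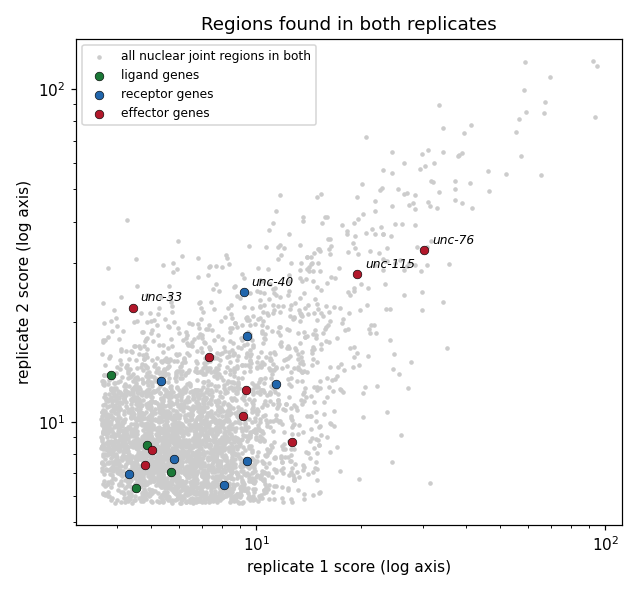
Scores of regions found in both replicates, replicate 1 on the x axis and replicate 2 on the y axis (both log axes), with the 21 member regions coloured by role over all nuclear joint-list regions in grey. unc-76 and unc-115 are high in both replicates, while unc-40 and unc-33 are high in replicate 2 (24.6 and 22.05) and lower in replicate 1 (9.22 and 4.43).

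Each replicate list alone reached nearly every member, as its length allows. Replicate 1 had a region at 41 of the 44 (93.2%, against 63.8% of all genes), missing unc-129, smp-2 and sax-1. Replicate 2 had a region at 42 (95.5%, against 59.1%), missing efn-3 and sax-1. A region found in both replicates within 100 bp was present at 20 members (45.5%, exact interval 30.4 to 61.2), against 15.8% of all genes: 4 ligand, 8 receptor and 8 effector genes. Limited to the 5000 highest regions of each replicate it was present at 7 members (15.9%, exact interval 6.64 to 30.1), against 2.79% of all genes. These were the receptor genes unc-40, unc-5 and sax-7 and the effector genes unc-76, unc-115, unc-73 and max-2. As in the joint list, the larger territory of the members enters these shares.

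Among the 357 highest regions of each replicate, as many as the optimal set holds, both replicates had 4 members and shared unc-76 and unc-115. Replicate 1 added unc-44 (rank 221) and mig-13 (rank 275). Replicate 2 added unc-40 (rank 270) and unc-33 (rank 344). Of these 6 genes 3 were in the optimal set.

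The tagged gene zag-1 had no region in any of the 4 lists by the same rule. No ChIP of another factor was used here, so regions shared by many factors and regions of ZAG-1 itself cannot be told apart.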

How the data were processed

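The deposited files are region lists from whole-animal ChIP-seq of 2 biological replicates, which form 1 group. The authors made each replicate list from that replicate's alignment and a control, a joint list from both alignments, and the optimal set of 357 regions from these by the irreproducible discovery rate, per the deposited notes. Aligner, caller and thresholds were not given in the sources used here. For each region the signal score (column 7) is the authors' deposited value and is not scaled between lists, and the remaining column used is the summit. Only ce11 lists were used, with Ensembl release 115 gene models and the RefSeq genome of WBcel235, all of the same build, and positions count from 1.

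Members, their roles and the other gene lists were chosen with earlier results of these data known, so no p-value is given for them, and 3 of the 111 symbols in the other lists matched no gene. The optimal region of 1 of these genes is not reported here. All 44 members are named. Full values went to members with an optimal region, the 4 highest of each role, unc-6, unc-40, unc-5, slt-1 and sax-3. Summits within 100 bp counted as matched, territories and promoters were computed from protein-coding starts, and ties went to the first gene by name. Assignment and matching were tested on simulated data. Shares have exact Clopper-Pearson 95% intervals, which cover counting only. Alternatives changed the distance, the gene types, the gene rule, the list length, the matching distance, the promoter and word windows, and left out each replicate. The software was Python 3.11.15, NumPy 2.4.6, pandas 2.3.3, SciPy 1.17.1 and matplotlib 3.10.9.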

Additional observations from a re-analysis of the deposited data

How the results depend on the processing

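No paired analysis was possible because both samples belong to the same group. The 3 members with an optimal region were 3 under each distance and gene rule, 2 in the upper 178 optimal regions, and 4 from the highest regions of either replicate alone. Members with a joint-list region ranged from 21 (starts within 1000 bp) to 32. With starts of all gene types they were 22, and members with a region in both replicates were 14. For the alternative distances and gene rules no counts or rates over all genes are given, so the difference from all genes is not known there. Members with a region in both replicates fell from 20 to 6 with starts within 1000 bp, 7 for the 5000 highest regions and 13 with summits within 50 bp, and were 25 with summits within 200 bp, where 37 and not 21 member regions matched in both. The shorter distance and lists leave fewer regions by construction. Regions per 100 kb were 16.8 within 2000 bp, 17.5 within 1000 bp and 14.5 with gene bodies first, 14.4 to 15.6 without a replicate, and 14.2 without unc-73, an exclusion chosen after seeing the data, as was leaving out the 3 optimal members (28 of 41 had a joint-list region) and the genes of judged role. The promoter share was 42.3% within 2000 bp and 70.97% within 1000 bp, where far regions are dropped, 16.05% for promoters of 500 bp, and 22.4% to 23.2% without a replicate. The Spearman correlation was 0.304 with summits within 200 bp, and GAGACG was in 13.6% of windows within 100 bp, against 4.94% within 50 bp (8.43% and 4.74% in the joint list). Without a read depth, differences in score could not be weighed.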

Other observations

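GAGAGA also occurred at low-ranked member regions. The Ror kinase gene cam-1 had it within 50 bp of 3 of its 4 joint-list summits, at ranks 5387, 8700 and 9167, while the highest cam-1 region, at rank 3679, did not. The phosphatase gene clr-1 had it at rank 6624 and the tripartite motif gene madd-2 at rank 9386. None of the 27 member regions at ranks 1001 to 5000 had the word, against 8.7% of all nuclear regions of those ranks, and 5 of the 43 lower member regions had it (11.6%, against 5.5%). Several of these summits share a gene, and the pattern was not tested.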
